A study of Gossypium hirsutum with 63 samples.

Results

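The genes described here are the 107 entries, of 80325 in the authors' table for upland cotton (Gossypium hirsutum), whose description names a UDP-glucosyl transferase. They were taken by that wording alone, with no measured value involved. RNA was sequenced from field-grown plants labelled squaring stage, in leaves, in pooled small flower buds and in ovules 1 day post anthesis, with 3 libraries for each of 7 genotypes in each tissue and 63 libraries in all. The genotypes are 3 hybrids labelled SJ48x98-15 (H, high yield heterosis), SJ48x51-2 (M, medium) and SJ48xT-8 (L, low), and 4 inbred lines. Paternal lines are B for Z98-15, C for 851-2 and D for DT-8, the fathers of H, M and L in that order, and A for SJ48 is the maternal line that all 3 hybrids share. The labels name no treatment or transgene, leaves of different plants were pooled, and each genotype is 1 line or 1 cross.

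UDP-glucosyl transferases move glucose from UDP-glucose onto small molecules such as flavonoids, phenolic acids and hormones. The glucosides are usually more soluble and less active than the free molecules and are often stored in the vacuole, from where beta-glucosidases can release them. The numbered families of these enzymes were named mostly in Arabidopsis, so a role given below is the role of the Arabidopsis enzyme of that name, and the cotton gene carries the name by its description in the table.

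The 107 genes fell into 11 numbered families. Family 85 had 20 members, family 71 had 19, family 73 had 14, family 74 had 12, family 78 had 11, family 88 had 8, family 89 had 7, family 75 had 6, family 84 had 4, and families 72 and 76 had 3 each. The D subgenome carried 57 of them, the A subgenome 46, and 4 lay on scaffolds. In 50 members the number in the gene name stood within 5 of that of another member on the same chromosome, which gave 21 runs of neighbours. The longest runs were 4 members of family 75 on chromosome D02, and 4 members of family 85 on each of chromosomes A10 and D10. Neighbours and homoeologous copies of this kind resemble each other, so reads may have been shared among them and the level of a single copy is uncertain. In 6 members the assembly joined several gene names into 1 locus.

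Levels are FPKM as deposited, the fragments counted on a gene scaled for its length and for the fragments mapped in the library. Total FPKM ran from 410556 to 449250 per leaf library, from 413789 to 454309 per bud library and from 418915 to 477980 per ovule library. Depth relative to the first H leaf library, read from the steps between low values, ran from 0.931 to 1.39 in leaf, from 0.966 to 1.33 in buds and from 0.894 to 1.36 in ovule. This estimate rests on 2.19% to 4.54% of the low genes compared, and it spans more than the range of reads given by the study. Summed FPKM of 107 light-harvesting, Rubisco and photosystem genes was 11449 to 20554 in leaf, 723 to 1135 in buds and 107 to 198 in ovule, so the leaf label held against its markers. Summed epidermis and fibre initial markers were 1499 to 2698 in ovule, against 380 to 674 in buds and 398 to 725 in leaf. Replicates 2 and 3 of L ovule stood apart from the other ovule libraries, with 836 and 814 FPKM of summed pollen and anther markers (122 genes, of which 11 were at 0 in all ovule libraries), against 397 to 482 in the other 19. Results that rest on them are given with and without them. In ovule, the libraries of A and replicates 1 and 2 of B also had lower base quality than the other 16. Quality and the A genotype thus cannot be told apart there in any contrast of a hybrid, C or D with A. Ovule contrasts with B carry the quality difference in part.

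Most members were low. The mean reached 1 FPKM in 31 members in leaf, in 28 in flower buds and in 18 in ovule, and 44 members reached it in at least 1 tissue. Means of at least 10 FPKM were found for 1 member in leaf, 3 in buds and 1 in ovule. The 3 in buds were Gh_D09G2002, Gh_A09G2282 and Gh_A12G2287, each listed at 0 in some bud libraries and far higher in others. The summed FPKM of all members had a median of 119 per library in leaf (91.7 to 163), 105 in buds (76.5 to 254) and 77.4 in ovule (55.7 to 166). For comparison, the 207 other UDP-glycosyltransferases of the table summed to a median of 594 in leaf, 818 in buds and 799 in ovule. The 3 members at 0 in all 63 libraries are not discussed further. Genes entered a test when 1 of its libraries exceeded 0.5 FPKM, which admitted 62 members in leaf, 66 in buds, 47 in ovule and 81 across the tissues.

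Similar levels in all 3 tissues were seen for a pair of loci named 78D2, the name of an Arabidopsis anthocyanidin and flavonol 3-O-glucosyltransferase. The locus that joins Gh_D03G0476 and Gh_D03G0477 ranged from 6.78 to 15.2 FPKM in leaf (median 9.86), from 7.43 to 11.1 in buds (median 9.06) and from 5.10 to 9.47 in ovule (median 8.23). The locus that joins Gh_A02G1341 and Gh_A02G1342 ranged from 4.65 to 9.44 FPKM in leaf (median 6.05), from 5.68 to 8.19 in buds (median 6.91) and from 3.80 to 7.74 in ovule (median 6.76). Both were among the 5 members with the highest mean in every tissue, and neither was called in any comparison of tissues or genotypes. Both descriptions also name exportin 1A, a nuclear export receptor found in all cells, so the level may be that of either gene. Among members with 1 gene name, Gh_A03G0638 (89B1), chosen after its values were seen, was at 3.41 to 8.76 FPKM in leaf, 3.10 to 4.31 in buds and 2.50 to 5.41 in ovule, with no library at 0.

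The first question was where in the plant each gene was expressed. A member was called when the Benjamini-Hochberg adjusted p of limma, over all genes tested, was under 0.05 and the change on the log2(FPKM + 1) scale was beyond 1. Between leaf and flower buds, 8 of 81 members were higher in leaf and 3 lower, and of all 68947 genes tested 6.05% were higher and 8.09% lower (14.1% in all). Between ovule and flower buds, 1 was higher in ovule and 6 lower (all genes: 3.58% and 7.13%, together 10.7%). Between ovule and leaf, 2 were higher in ovule and 11 lower (all genes: 9.84% and 9.08%, together 18.9%). The libraries of the 2 tissues did not overlap for 3 members between leaf and buds (14.7% of all genes), 5 between ovule and buds (9.32%) and 9 between ovule and leaf (19.8%). At this pseudocount of 1 the members' shares were near or below those of all genes in both counts. With a pseudocount of 0.1, which gives low values more weight, 29, 30 and 26 of the 81 members were called (35.8%, 37.0% and 32.1%), against 25.7%, 21.6% and 32.1% of all genes, so the reading of the first 2 contrasts depends on that setting. The median log2 change over the members was 0.01 for leaf minus buds, -0.13 for ovule minus buds and -0.07 for ovule minus leaf, and over all tested genes it was -0.14, -0.00 and 0.11. Rescaling by median of ratios moved the median of all genes by 0.12, -0.05 and -0.13 in these 3 contrasts, and the median over the members was then 0.07, -0.14 and -0.15. In bulk tissue, fewer cells of an expressing type and less RNA per cell cannot be told apart.

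**Figure D1:**
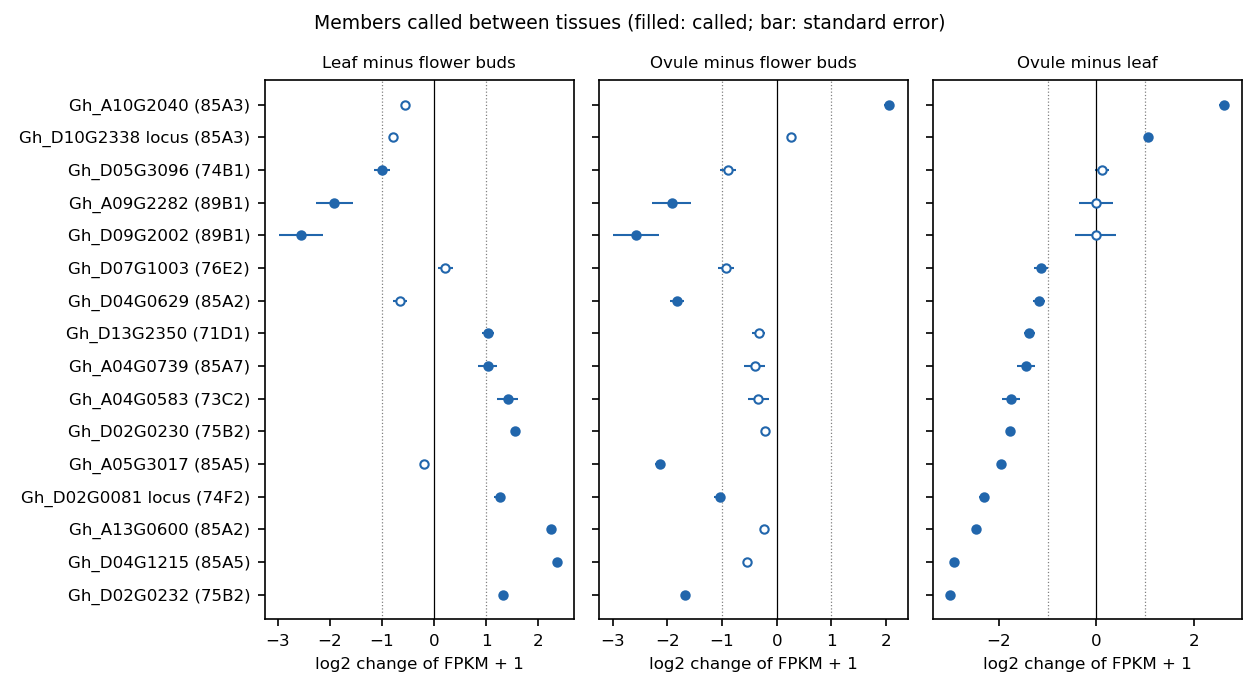
Log2 change of FPKM + 1 between tissues for the 16 members called in at least 1 tissue contrast, with the standard error from limma over 63 libraries; filled points passed both thresholds, and dotted lines mark changes of 1. The genes at the bottom lie left of -1 in ovule minus leaf and Gh_A10G2040 lies beyond 2 in both ovule contrasts.

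The largest rises in leaf over buds and in ovule over either tissue were of family 85. Gh_D04G1215 (85A5) had 5.50 to 10.1 FPKM in leaf (median 6.83), against 0.346 to 0.722 in buds (median 0.606). The log2 change was 2.37 (SE 0.04, adjusted p = 2.28e-41 by limma), and the libraries of the 2 tissues did not overlap. Ovule libraries held 0 to 0.213 FPKM of it, with a log2 change of -2.91 against leaf (SE 0.04). Gh_A13G0600 (85A2) had 2.93 to 9.52 FPKM in leaf, against 0.017 to 0.669 in buds (log2 change 2.24, SE 0.06), and was listed at 0 in all 21 ovule libraries. Buds and ovule thus held under 1 FPKM of these 2 genes in every library, and leaf held at least 2.93 FPKM in every one.

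Gh_A05G3017 (85A5) was present in leaf and buds and nearly missing from ovule. It had 0.0305 to 0.452 FPKM in ovule (median 0.268), against 2.72 to 6.07 in buds (median 4.43), a log2 change of -2.13 (SE 0.09), and 1.81 to 9.52 in leaf, a log2 change of -1.94 for ovule minus leaf (SE 0.09). Gh_D04G0629 (85A2) followed the same order, with 0 to 0.107 FPKM in ovule, against 0.825 to 6.49 in buds and 0.344 to 2.49 in leaf; the log2 changes were -1.83 against buds (SE 0.13) and -1.17 against leaf (SE 0.13). Neither gene's ovule libraries overlapped those of the other tissues. Gh_A04G0739, the only 85A7 gene, had 3.47 to 17.7 FPKM in leaf, against 0.577 to 6.54 in buds, and was called at 1.03 (SE 0.18) with overlapping libraries. Without replicate 2 of every group that change was 0.97 and the call was lost, and in A alone it was 1.17 with an adjusted p of 0.128 (limma). Ovule libraries had 0.692 to 3.61 FPKM, a log2 change of -1.43 against leaf (SE 0.18).

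The opposite direction belonged to 2 members named 85A3. Gh_A10G2040 had 4.82 to 29.1 FPKM in ovule (median 11.5), against 0.918 to 5.21 in buds (median 2.01) and 0.663 to 1.79 in leaf (median 1.08). The log2 change was 2.05 for ovule minus buds (SE 0.09, adjusted p = 7.65e-25 by limma) and 2.60 for ovule minus leaf (SE 0.09). Its ovule libraries lay above all leaf libraries and overlapped the buds only in L ovule replicate 3 (4.82 FPKM) and D buds replicate 2 (5.21 FPKM). The locus that joins Gh_D10G2334 to Gh_D10G2338 had 2.28 to 9.99 FPKM in ovule, against 0.366 to 4.16 in leaf, with a log2 change of 1.05 (SE 0.05). The change was 0.77 after median-of-ratios rescaling and 0.99 without replicate 3, both short of the threshold of 1. Gh_A10G2040 was called in both ovule contrasts in the 9 libraries of A alone as well, which share 1 class of base quality.

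Among the other families, the 74F2 locus that joins Gh_D02G0079 to Gh_D02G0081 rose in leaf. The Arabidopsis enzyme 74F2 glucosylates salicylic acid. It had 2.48 to 11.6 FPKM in leaf (median 5.65), against 0.451 to 3.05 in buds (median 1.70), a log2 change of 1.26 (SE 0.10), and ovule libraries held 0.0381 to 0.842 FPKM, a log2 change of -2.30 against leaf (SE 0.10). Gh_A04G0583 (73C2) was higher in leaf than in buds at 1.41 (SE 0.19), but was listed at 0 in 2 leaf, 8 bud and 16 ovule libraries. Its leaf libraries held 3.99, 3.44 and 0 FPKM in H, 2.02, 1.70 and 3.49 in M, 2.51, 2.34 and 1.46 in L, 4.96, 3.32 and 3.41 in B, 7.33, 5.91 and 0 in C, 5.63, 2.64 and 4.63 in D and 2.80, 2.17 and 6.69 in A, against at most 1.48 FPKM in any bud library and 1.95 in any ovule library. Gh_D05G3096 carries the name of 74B1, which glucosylates a glucosinolate precursor in Arabidopsis. It was listed at 0 in 6 leaf libraries and had 0 to 2.51 FPKM in leaf, against 1.04 to 4.50 in buds. The log2 change of -1.01 (SE 0.15) was -0.90 after rescaling, -0.90 without replicate 3 and -0.89 in A alone, all short of the threshold. The remaining called members, Gh_D13G2350 (71D1) and Gh_D07G1003 (76E2), named after their values were seen, were lower in ovule than in leaf, with log2 changes of -1.37 (SE 0.12) and -1.14 (SE 0.14), and Gh_D13G2350 was also higher in leaf than in buds (1.04, SE 0.12).

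The gene with the highest mean in leaf was Gh_D02G0232 (75B2), at 10.1 FPKM over the 21 libraries, with 3.15 in buds and 0.142 in ovule. It lies on chromosome D02 close in gene number to Gh_D02G0230, another 75B2 gene, and to Gh_D02G0229 (75B1) and Gh_D02G0227 (75B2). In Arabidopsis the enzyme 75B1 was found at the forming cell plate together with callose synthase. Over all genotypes Gh_D02G0232 was called in each tissue contrast: leaf minus buds 1.33 (SE 0.05), ovule minus buds -1.68 (SE 0.05) and ovule minus leaf -3.004 (SE 0.05). In A alone, where the gene was low throughout, these were 0.54, -0.22 and -0.76. None was called, since all fell short of the threshold of 1. Their adjusted p were 0.0312, 0.36 and 0.0046 by limma. The means of A kept the order of the other genotypes, at 0.710 FPKM in leaf, 0.167 in buds and 0.000407 in ovule.

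In leaf, Gh_D02G0232 had 9.06, 8.22 and 8.54 FPKM in H, 6.30, 7.10 and 8.49 in M, and 8.91, 7.93 and 8.19 in L. The paternal lines had 20.5, 14.5 and 15.6 FPKM (B), 13.5, 18.0 and 13.7 (C), and 14.6, 12.4 and 15.1 (D), while A had 0.481, 1.03 and 0.620. All 9 paternal libraries lay above all 9 hybrid libraries, and all hybrid libraries lay above the 3 of A.

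For Gh_D02G0232 in leaf, the F test over the 7 genotypes gave an adjusted p of 6.51e-10 (limma), with a range of 3.38 between the highest and lowest log2 means. Paternal minus maternal changes were 3.38 for B, 3.23 for C and 3.15 for D, and hybrid minus A changes were 2.50 for H, 2.28 for M and 2.46 for L (SE 0.15 each). The 6 contrasts share the 3 libraries of A. Each hybrid was below its paternal line by less than the threshold of 1, with log2 changes of -0.88 for H minus B (adjusted p = 0.00913), -0.95 for M minus C (adjusted p = 0.00165) and -0.69 for L minus D (adjusted p = 0.0228 by limma). Against the arithmetic mean of the parents' FPKM, H stood at 97.99% ± 10.6 (SE), M at 92.7% ± 11.9 and L at 113% ± 7.6 (n = 3 libraries per group). On that scale no hybrid departed from the mid-parent level by 2 standard errors. On the log2 scale each hybrid was nearer its paternal line than A, so it lay above the log2 mid-parent. None of these log2 departures was called in leaf.

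Flower buds repeated this order at a lower level. Gh_D02G0232 had 3.45, 2.25 and 2.08 FPKM in H, 2.46, 1.31 and 2.09 in M, and 2.39, 2.29 and 2.33 in L. It had 6.09, 5.56 and 6.86 FPKM in B, 5.22, 3.92 and 4.95 in C, 4.30, 4.34 and 3.86 in D, and 0.200, 0.0839 and 0.216 in A. Again the hybrid libraries lay between those of the paternal lines and those of A with no overlap.

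The F test in buds gave an adjusted p of 1.65e-07 (limma). The log2 changes against A were 2.62 for B, 2.28 for C and 2.15 for D, and 1.61 for H, 1.32 for M and 1.52 for L (SE 0.16 each). H minus B was called at -1.01 (SE 0.16, adjusted p = 0.00391); it was -0.98 after rescaling, and the call was also lost without B replicate 3, H replicate 2 or H replicate 3, with -0.91 as the smallest of these changes. When only the libraries of the 2 genotypes compared were fitted, H minus B, H minus A and M minus A in buds kept their size but had adjusted p of 0.137, 0.0856 and 0.149. The hybrids stood at 81.9% ± 14.5 (H), 80.3% ± 15.4 (M) and 108% ± 4.2 (L) of the arithmetic mid-parent FPKM (SE, n = 3). In ovule the gene was at most 0.372 FPKM in any library and did not pass the filter, and A was listed at 0 in 2 libraries and at 0.00122 FPKM in the other.

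**Figure D2:**
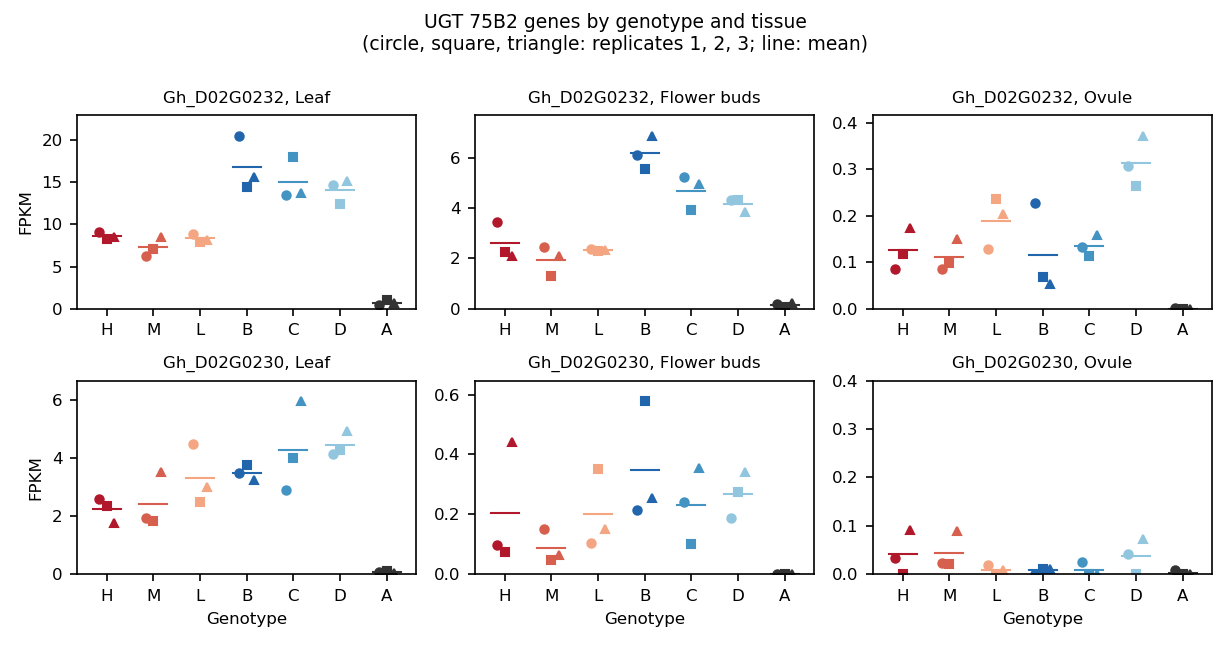
FPKM of the 75B2 genes Gh_D02G0232 and Gh_D02G0230 in every library, by genotype (H, M and L hybrids, B, C and D paternal lines, A maternal line) and tissue; each panel has its own scale from 0. In leaf, A lies at or below 1.03 FPKM for the first gene and at or below 0.103 FPKM for the other, with the hybrids above it.

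The neighbour Gh_D02G0230 was expressed in leaf, with 2.58, 2.36 and 1.78 FPKM in H, 1.93, 1.83 and 3.51 in M, and 4.48, 2.49 and 3.02 in L. The paternal lines had 3.48, 3.76 and 3.26 (B), 2.91, 4.02 and 5.96 (C), and 4.14, 4.28 and 4.93 (D), against 0.0625, 0.103 and 0.0312 in A. The 3 libraries of A lay below every other library, and hybrid and paternal libraries overlapped for M and C and for L and D but not for H and B.

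The F test for Gh_D02G0230 in leaf gave an adjusted p of 1.09e-05 (limma), and the changes against A were 2.08 for B, 2.27 for C, 2.35 for D, 1.60 for H, 1.65 for M and 2.00 for L (SE 0.21 each). M minus A had an adjusted p of 0.0971 in a fit on those 2 genotypes alone. Over all genotypes the gene was called as higher in leaf than in buds (1.56, SE 0.06) and lower in ovule than in leaf (-1.77, SE 0.06). In buds it reached at most 0.577 FPKM and was listed at 0 in all 3 libraries of A; in ovule it reached at most 0.091 FPKM. The other genes of the same description were low: Gh_D02G0227 was listed at 0 in all leaf and bud libraries and reached 0.0894 FPKM in ovule, and Gh_Sca202358G01 had 0.200 to 1.29 FPKM in buds with no difference called among genotypes. Gh_D02G0229 (75B1), named after its values were seen, reached 1.04 FPKM in leaf, 0.289 in buds and 0.172 in ovule at most, with A at 0 in all 3 leaf libraries and H, L and B as well.

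Whether the genotype difference depended on tissue was tested with contrasts of contrasts over all 63 libraries. The change of H against A in Gh_D02G0232 was larger in leaf than in buds by 0.90 log2 units (SE 0.19, adjusted p = 0.0161 by limma), and the ovule minus buds difference of this change was -1.44 (SE 0.19, adjusted p = 1.74e-05). For Gh_D02G0230 the change was larger in leaf than in buds by 1.34 (SE 0.21, adjusted p = 0.000457). These differences are on the log2(FPKM + 1) scale, which compresses changes of genes near or under 1 FPKM. Mean FPKM of Gh_D02G0232 in H and A was 8.61 and 0.710 in leaf, and 2.60 and 0.167 in buds. As a ratio of these means the change was larger in buds than in leaf, so its direction depends on the scale. In ovule the means of H and A were 0.126 and 0.000407 FPKM, where a pseudocount of 1 leaves little change to see. The ovule minus buds difference thus also depends on the scale.

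Over the whole set, most members were not called as different among the 7 genotypes. The shares called were above those of all genes in each tissue, on at most 6 members, and this difference was not tested. The F test called 4 of 62 members in leaf (3.03% of all tested genes were called), 4 of 66 in flower buds (1.76%) and 6 of 47 in ovule (7.35%), where 8 were called without L replicates 2 and 3. With all libraries these were 8 different genes, of which 7 stand in the runs of neighbours that hold 50 of the 107 members. Called in all 3 tissues were 2 loci: the 85A3 locus that joins Gh_D10G2334 to Gh_D10G2338, and the 88A1 locus that joins Gh_A07G2017 and Gh_A07G2018. In both of them B stood apart from A in every tissue.

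The 85A3 locus on D10 was low in B. In leaf it had 1.88, 2.10 and 1.92 FPKM in H, 0.472, 0.387 and 0.366 in B and 3.08, 3.11 and 3.18 in A, and the other genotypes ranged from 2.76 to 4.16. In buds it had 4.11, 4.35 and 3.81 FPKM in H, 1.97, 3.09 and 3.09 in B and 5.40, 7.54 and 7.49 in A. In ovule it had 5.96, 5.97 and 6.32 FPKM in H, 2.28, 3.12 and 3.24 in B and 6.64, 8.19 and 8.96 in A. H lay between its parents in every tissue with no overlap.

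B minus A was -1.55 in leaf (SE 0.12, adjusted p = 3.30e-07 by limma), -1.07 in buds (SE 0.14, adjusted p = 0.000311) and -1.20 in ovule (SE 0.14, adjusted p = 2.68e-05); in buds the call was lost without B replicate 1, at -0.92, and in a fit on B and A alone (adjusted p = 0.157). H minus B was called in leaf, at 1.07 (SE 0.12, adjusted p = 0.000135). Of the arithmetic mid-parent FPKM, H had 111% ± 4.1 in leaf, 85.8% ± 7.9 in buds and 113% ± 8.1 in ovule (SE, n = 3). In D, whose hybrid is L, the locus was at 4.14 to 5.21 FPKM in ovule, under all libraries of A, but D minus A was not called.

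The 88A1 locus on A07 was high in B. In leaf it had 6.27, 5.94 and 6.36 FPKM in H, 10.03, 9.17 and 9.74 in B and 3.603, 0.369 and 3.22 in A. In buds it had 3.15, 2.99 and 3.63 FPKM in H, 4.75, 7.29 and 6.80 in B and 1.96, 1.84 and 2.71 in A, and in ovule 2.46, 2.09 and 2.58 FPKM in H, 3.73, 3.96 and 3.73 in B and 0.593, 1.14 and 1.15 in A. H was again between B and A in each tissue, with no overlap.

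B minus A was 1.83 in leaf (SE 0.31, adjusted p = 0.00322 by limma), 1.19 in buds (SE 0.18, adjusted p = 0.000901) and 1.31 in ovule (SE 0.17, adjusted p = 0.000117). In fits on B and A alone the calls in leaf and buds were lost (adjusted p = 0.388 and 0.112 by limma). The leaf libraries of A had an SD of 1.77 FPKM around a mean of 2.40. The reason for the lost calls was not tested. H had 103% ± 9.2 of the arithmetic mid-parent FPKM in leaf, 77.1% ± 8.8 in buds and 99.9% ± 7.5 in ovule (SE, n = 3). M and L did not differ from their parents by a called change at this locus.

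**Figure D3:**
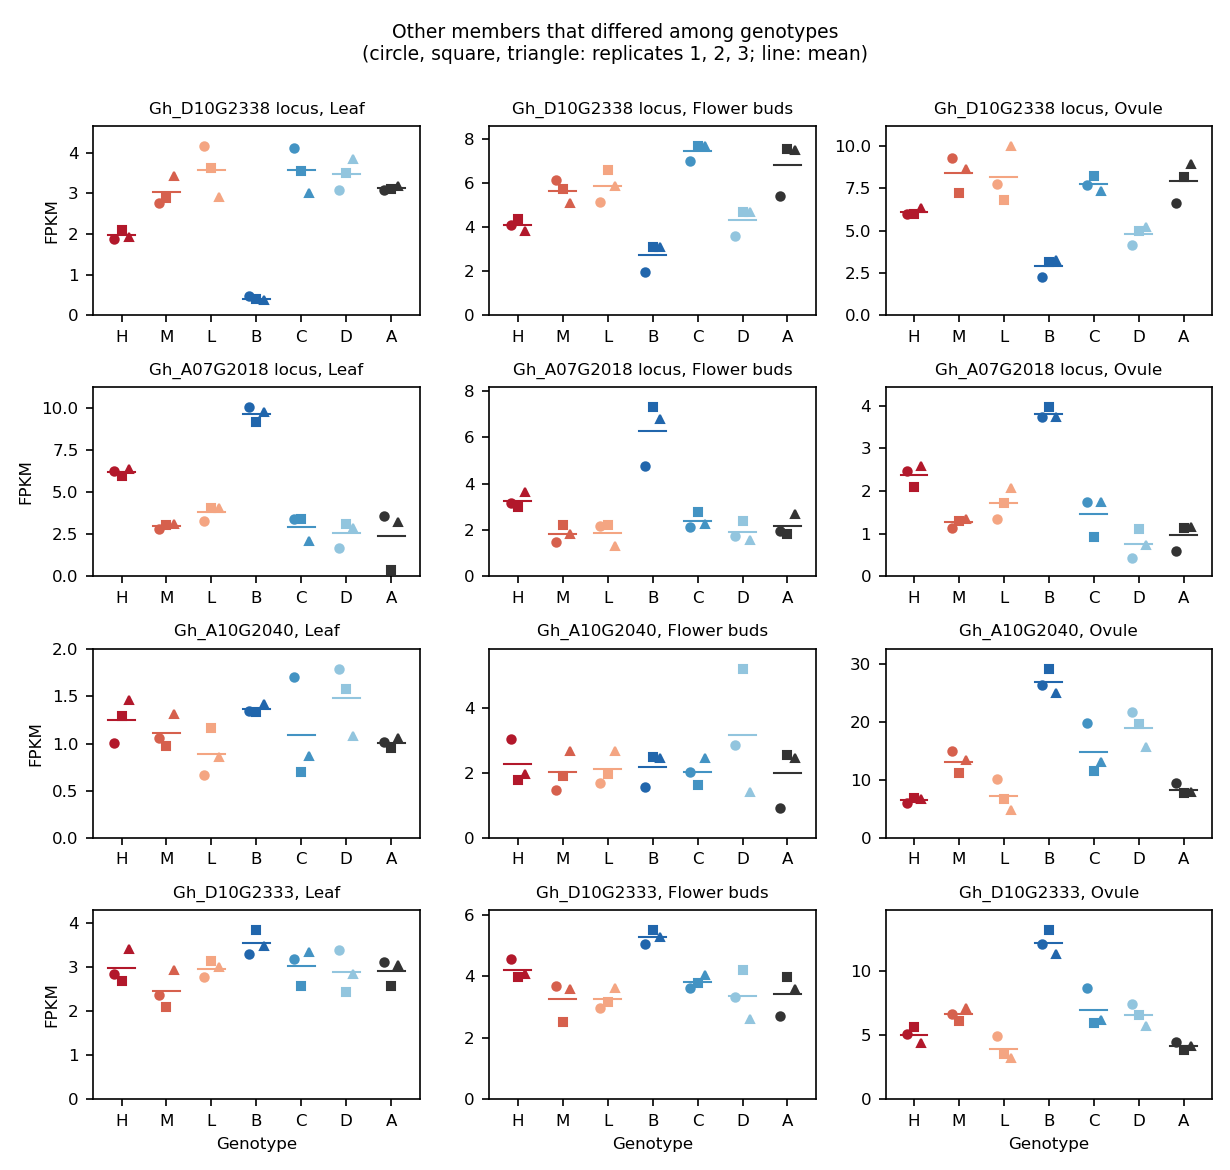
FPKM in every library of the 85A3 locus on D10 (Gh_D10G2338 locus), the 88A1 locus on A07 (Gh_A07G2018 locus), Gh_A10G2040 and Gh_D10G2333, by genotype and tissue; each panel has its own scale from 0. B is lowest in the first row and highest in the next, with H between B and A, and in ovule B is highest for the 2 genes in the last rows.

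Ovule set apart a further pair of family 85. Gh_A10G2040 (85A3) had 6.05, 6.89 and 6.69 FPKM in H, 15.0, 11.1 and 13.4 in M, and 10.1, 6.60 and 4.82 in L. The parents had 26.4, 29.1 and 24.9 (B), 19.8, 11.5 and 13.1 (C), 21.7, 19.6 and 15.6 (D), and 9.36, 7.72 and 7.87 (A). Here H was not between its parents: its 3 libraries lay below those of both B and A.

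H minus B was -1.88 (SE 0.21, adjusted p = 3.22e-05 by limma), B minus A 1.58 (SE 0.21, adjusted p = 0.000107) and D minus A 1.09 (SE 0.21, adjusted p = 0.00421). H minus the log2 mid-parent was -1.09 (SE 0.18, adjusted p = 0.0041), the only called departure of H, and H stood at 37.3% ± 2.0 (SE, n = 3) of the arithmetic mid-parent FPKM; H minus A itself was not called. With a term for base quality, which rests on B replicate 3 against the other B libraries, H minus mid-parent was -0.97 with an adjusted p of 0.468, and D minus A was 1.24 with an adjusted p of 0.186. L minus D was -1.33 (SE 0.21, adjusted p = 0.000642), and -0.84 with an adjusted p of 0.0868 without L replicates 2 and 3. In a fit on L and D alone its adjusted p was 0.133. In leaf and buds this gene was called in no genotype comparison.

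Gh_D10G2333 (85A5), on D10 beside the 85A3 locus, was also highest in B in ovule, but here H and A overlapped: it had 5.08, 5.62 and 4.35 FPKM in H, 12.1, 13.2 and 11.3 in B, and 4.44, 3.82 and 4.10 in A. B was above all other genotypes, and M, L, C and D ranged from 3.21 to 8.67. B minus A was 1.36 (SE 0.14, adjusted p = 1.04e-05 by limma) and H minus B was -1.13 (SE 0.14, adjusted p = 0.000127). H stood at 61.6% ± 5.0 (SE, n = 3) of the arithmetic mid-parent FPKM, while its log2 departure from the mid-parent was not called. In buds B was also above all other libraries, at 5.06 to 5.50 FPKM against 2.50 to 4.55. In leaf B had 3.28 to 3.83 FPKM and overlapped other genotypes. Neither tissue had a called genotype difference for this gene.

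Gh_A10G2041 (85A2), the neighbour of Gh_A10G2040, was high in the L ovule libraries that stand apart. It had 2.24, 17.5 and 20.3 FPKM in L, 1.44, 1.41 and a value near 0 in D, and 0.992, 0.189 and 0 in A. L minus A was 3.02 (SE 0.54, adjusted p = 0.00345 by limma) and L minus D was 2.59 (SE 0.54, adjusted p = 0.00446). Without L replicates 2 and 3, when the lone L library is assumed to vary like the other groups, these were 1.28 (adjusted p = 0.334) and 0.85 (adjusted p = 0.494). With all libraries, fits on the 2 genotypes alone gave adjusted p of 0.24 for L minus A and 0.217 for L minus D, and the term for base quality gave 0.17 for L minus A. In buds the same gene had 2.70, 3.74 and 2.09 FPKM in B, against 0.926, 0 and 0.327 in A, a log2 change of 1.47 (SE 0.28, adjusted p = 0.0103), which was lost without A replicate 2 or B replicate 2 and in a fit on B and A alone (adjusted p = 0.214).

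The next question was how each hybrid compared with its parents. At least 1 of the 6 hybrid minus parent contrasts called 4 members in leaf (1.46% of all genes) and 1 in buds (1.07%). In ovule 6 members were called in this way (7.98%). Without L ovule replicates 2 and 3, every called change of L against a parent in ovule was smaller or could not be tested. Changes of some other members grew on the remaining L library. Paternal minus maternal contrasts called 4 members in leaf (1.76%), 4 in buds (1.35%) and 4 in ovule (2.66%). In leaf all 8 hybrid minus parent calls were higher in the hybrid, and 6 of them were the 2 75B2 genes against A. The others were the 85A3 locus on D10 (H minus B) and the 74F2 locus on D02, with 5.65, 11.3 and 11.6 FPKM in L, against 2.92, 3.05 and 2.48 in D. That 74F2 change of 1.41 (SE 0.36, adjusted p = 0.0494 by limma) was lost in 13 of the 21 fits that left out 1 leaf library, and had adjusted p of 0.0762 in a fit on L and D alone, 0.079 with no filter, 0.0506 with a pseudocount of 0.1 and 0.0635 with the replicate number as a block. In these fits on 2 genotypes alone, 15 of the 39 changes between genotypes tested so for the named genes were no longer called.

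Departures from the log2 mid-parent were called for 0 members in leaf (0.415% of all genes; 4 members at an unadjusted p under 0.05), 1 in buds (0.317%) and 6 in ovule (4.84%). Of the 6 in ovule, 5 were higher in L than the mid-parent: Gh_A10G2041, Gh_D01G1313 (74B1), Gh_D03G0928 (89B1), Gh_D03G1358 and Gh_D13G1652. Of these, Gh_D01G1313 and Gh_D03G0928 were named after their values were seen. Without L replicates 2 and 3, Gh_D03G0928 and Gh_D03G1358 did not pass the filter and could not be tested, against the mid-parent or a parent. In that fit, which keeps 1 L library, the departure of Gh_A10G2041 was 1.06, against 2.81 with all libraries. L minus A of Gh_D01G1313 was 0.70 there, against 1.27 with all libraries. Gh_D12G2681 and Gh_D04G1584, named here after their values were seen, departed from the mid-parent by 6.40 and 1.29 on the remaining L library. Gh_D13G1652 (73C1) had 0, 4.78 and 5.81 FPKM in L ovule, 0.0653, 0 and 0 in D and 0.0456, 0 and 0.0233 in A. Its departure was 1.73 (SE 0.52, adjusted p = 0.0254 by limma), and -0.03 without these libraries. Its adjusted p was 0.0641 with a pseudocount of 0.1 and 0.367 with the term for base quality. Gh_D01G1313 had 2.51, 4.57 and 6.17 FPKM in L ovule, 1.21, 2.16 and 2.46 in D and 1.69, 1.38 and 0.571 in A, and its departure of 1.06 (SE 0.29, adjusted p = 0.016) was 0.49 without them. Gh_D03G0928 had 0, 0.621 and 9.73 FPKM in L ovule and was listed at 0 in the other 18 ovule libraries. Gh_D03G1358 (71B6, in Arabidopsis an abscisic acid glucosyltransferase) had 0, 3.76 and 3.73 FPKM in L ovule and was listed at 0 in the other 18 ovule libraries, but 1 library each of M, L, B and D leaf held 11.2 to 17.1 FPKM of it. In the same 2 L ovule libraries summed phenylpropanoid entry enzymes (29 genes, 0 of them at 0 throughout) were 398 and 439 FPKM, against 147 to 259 in the other 19. Of the pollen and anther list, 5 of 87 tested genes were higher and 1 lower in L ovule than the mid-parent, and of all genes 1764 of 59372 were higher and 868 lower. The part of these markers in the members' values was not tested.

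The single departure in buds belonged to Gh_A12G2287 (88A1), with 108, 0 and 157 FPKM in M and 0 in all other bud libraries. The fit gave 4.69 (SE 1.02, adjusted p = 0.0442 by limma), a value that depends on the pseudocount because both parents are listed at 0, and the call was lost in 20 of the 21 fits that left out 1 bud library and with no filter (adjusted p = 0.0615). This gene was also listed at 5.89 FPKM in H leaf replicate 3, at 5.002 in L ovule replicate 3 and at 4.17 in A ovule replicate 3, and at 0 in every other library.

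Of the 38 members that exceeded 5 FPKM in at least 1 library, 19 had at least 1 group with a library listed at 0 and another above 5 FPKM. Over all genes the share was 13.5% of 45937. Such splits were also seen in 67 of 994 genes above 5 FPKM whose descriptions name a ribosomal protein, actin, tubulin or a ubiquitin-conjugating enzyme. Whether a 0 in this table is a missing transcript or a failed estimate was not tested, and no mean is given here for such members.

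**Figure D4:**
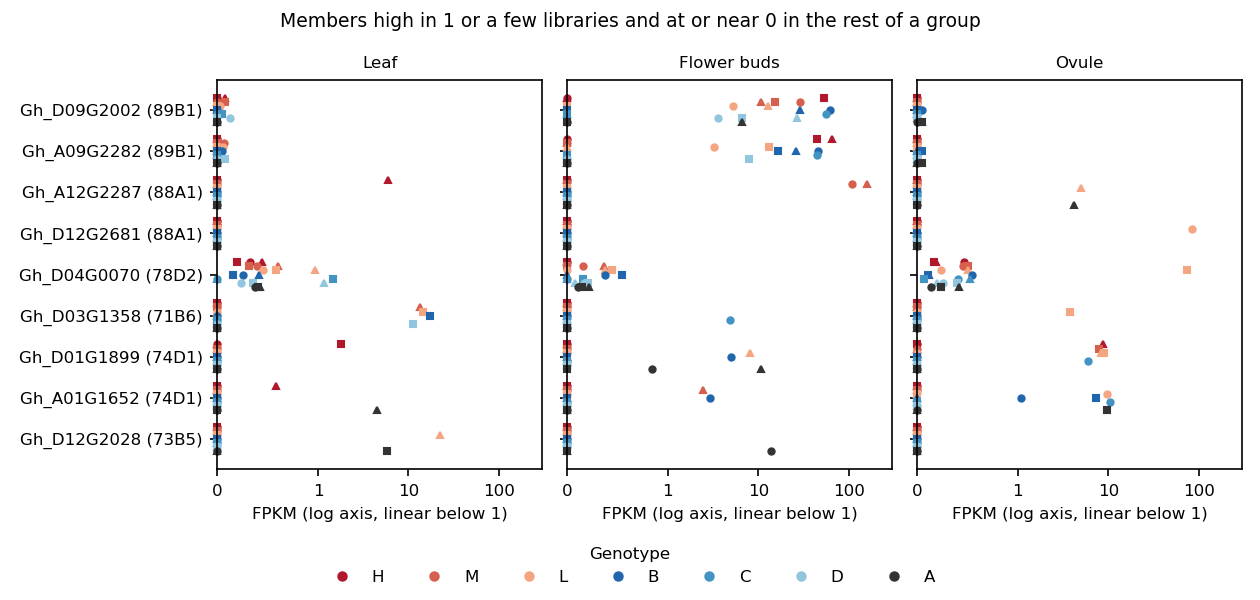
FPKM in every library (log axis, linear below 1) of 9 members with high values in 1 or a few libraries, chosen after their values were seen; colours are genotypes, and circles, squares and triangles are replicates 1, 2 and 3. The 89B1 genes in the upper rows spread from 0 to 65.1 FPKM in buds and stay at or below 0.121 FPKM in leaf and ovule, while the others are high in isolated libraries.

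In buds a pair named 89B1, on chromosomes D09 and A09, was split in this way in several genotypes. Gh_D09G2002 had 0, 53.2 and 0 FPKM in H, 28.9, 15.4 and 10.7 in M, 5.25, 0 and 12.7 in L, 61.8, 0 and 28.5 in B, 56.2, 0 and 0 in C, 3.58, 6.66 and 26.4 in D, and 0, 0 and 6.66 in A. Gh_A09G2282 had 0, 44.2 and 65.1 FPKM in H, 0 in the 3 libraries of M, 3.23, 13.0 and 0 in L, 45.4, 16.7 and 26.2 in B, 44.4, 0 and 0 in C, 0, 7.92 and 0 in D, and 0 in A. In leaf and ovule neither exceeded 0.121 FPKM in any library.

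Bud libraries with either gene above 10 FPKM thus occurred in H, M, L, B, C and D, and none in A. Over all genotypes the log2 change was -2.56 (SE 0.42) for leaf minus buds and -2.57 (SE 0.42) for ovule minus buds in Gh_D09G2002, and -1.91 (SE 0.35) and -1.92 (SE 0.35) in Gh_A09G2282; in A alone neither contrast of Gh_D09G2002 was called. The F test over genotypes called neither gene in buds. Summed pollen and anther markers also spread widely among bud libraries, from 571 to 3094 FPKM (7 of 122 genes at 0 in all of them), against 494 to 1099 in leaf and 397 to 836 in ovule, and their part in the bud values was not tested.

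Further members of this kind were chosen for mention after their values were seen. Gh_D12G2681 (88A1) had 83.3, 0 and 0 FPKM in L ovule and was listed at 0 in all other libraries of the series. Gh_D04G0070 (78D2) had 0.237, 74.9 and 0.504 FPKM in L ovule, against 0.0682 to 0.545 in the other 18 ovule libraries. The summed FPKM of all 107 members was 160, 166 and 132 in L ovule, 75.1, 77.6 and 70.7 in D ovule and 59.9, 68.9 and 64.6 in A ovule, so that these 2 genes alone made up 83.3 FPKM of the sum in L replicate 1 and 74.9 FPKM in L replicate 2. Gh_D01G1899 and Gh_A01G1652 carry the name of 74D1, a jasmonate glucosyltransferase in Arabidopsis. In ovule Gh_D01G1899 was at 8.81 FPKM in 1 H library, 7.85 in 1 M library, 9.05 and 8.28 in 2 L libraries and 5.96 in 1 C library, and Gh_A01G1652 was at 9.76 in L, at 1.09 and 7.30 in B, at 10.5 in C and at 9.60 in A, in 1 library each except for B; all other ovule libraries were at 0.

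Gh_D03G0926 (89B1) was called lower in H ovule than in B with zeros in the group. It had 0, 0 and 1.81 FPKM in H, against 4.11, 4.71 and 4.35 in B and 1.96, 1.42 and 1.88 in A. H minus B was -1.93 (SE 0.47, adjusted p = 0.026 by limma), and the call was lost without any 1 of the B libraries or without H replicate 1 or 2, in a fit on H and B alone (adjusted p = 0.0996), with a pseudocount of 0.1 (adjusted p = 0.0598) and with the term for base quality (adjusted p = 0.267).

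Other steps of the glucoside pathway were compared through lists searched in the descriptions. For comparison, 6.05% of all tested genes were higher and 8.09% lower in leaf than in buds. Between ovule and leaf, 9.84% of all tested genes were higher in ovule and 9.08% lower. Of 35 beta-glucosidases, which remove glucose again, 29 were tested; 3 were higher and 1 lower in leaf than in buds, and 2 were higher and 5 lower in ovule than in leaf. Of 42 genes of UDP-glucose supply, 36 were tested; 0 were higher and 10 lower in leaf than in buds, and 12 were higher and 3 lower in ovule than in leaf, with medians of -0.45 and 0.31 on the log2 scale. Summed FPKM of UDP-glucose supply was 198 to 277 in leaf, 627 to 1048 in buds and 602 to 999 in ovule, without overlap of leaf and the other tissues. Of 66 flavonoid enzymes, makers of common acceptors of glucose, 57 were tested; 18 were higher and 9 lower in leaf than in buds, and 3 were higher and 18 lower in ovule than in leaf. Among 152 tested other UDP-glycosyltransferases, 5 were higher and 12 lower in leaf than in buds, and 13 were higher and 12 lower in ovule than in leaf.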

How the data were processed

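Per the labels and the methods of the study, the authors trimmed paired-end reads with Cutadapt, aligned them with HISAT, assembled and merged them with StringTie and deposited FPKM per gene, made with StringTie and Ballgown on a genome build not given in the sources used here. FPKM were used as deposited. A further 21 columns of FPKM belong to no sample and were not used, and of the gene names 0 matched the RefSeq table. Absolute depth is not known from FPKM; relative depth is given in the report.

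Genes above 0.5 FPKM in at least 1 library of a fit were tested with limma 3.58.1 (R 4.3.3) on log2(FPKM + 1) with its trend and robust options. Genotypes were compared in a model of each tissue, and tissues and interactions in a model of all 21 groups. Calls needed a Benjamini-Hochberg adjusted p under 0.05 over all genes and a log2 change beyond 1. The log2 scale with a pseudocount of 1 understates changes of low genes. The study calls the libraries biological replicates, but the labels do not name separate plants behind them, so p-values reflect only the spread among these libraries, which may be technical. The fits were tested on simulated data. Sums and figures used Python 3.11.15, pandas 2.3.3, NumPy 2.4.6 and matplotlib 3.10.9.

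Members, lists and tests were chosen with earlier results of these data known. Named genes are Gh_D02G0232 and genes of its description, the 5 highest means per tissue, the 5 largest called rises and falls per tissue contrast, the 5 largest called ranges among genotypes, the 4 largest rises and falls without overlap among hybrid and parent contrasts and the 3 largest called mid-parent departures per tissue. Others are said to be chosen after their values were seen. Alternatives were another pseudocount, other filters, rescaling, a replicate block, unadjusted p, a term for base quality, smaller fits and left-out libraries.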

Additional observations from a re-analysis of the deposited data

Results flagged for a closer look

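Differences among the 7 genotypes depended on tissue in 10 of 81 members (12.3%), by an F test of the genotype-by-tissue interaction (limma, Benjamini-Hochberg over 68947 genes, of which 15.5% passed). The adjusted p was 1.53e-15 for Gh_D02G0232 (75B2) and 7.66e-10 for its neighbour Gh_D02G0230. The genotypes spread from 0.481 to 20.5 FPKM in leaf for the first and from 0.0312 to 5.96 FPKM for the other, against at most 0.372 and 0.091 FPKM in ovule. It was 0.000159 for Gh_D10G2333 (85A5) and 0.00115 for Gh_A10G2040 (85A3), where B was above the other genotypes in ovule. It was 0.000735 for the 85A3 locus that joins Gh_D10G2334 to Gh_D10G2338. There B was below A in every tissue, while the mean of D was below that of A in buds and ovule but not in leaf. The adjusted p was 0.0251 by limma for Gh_A10G2041 (85A2), which rests in ovule on L replicates 2 and 3. It was 0.0128 for Gh_A12G2287 (88A1), which rests in buds on 2 libraries of M, 0.0222 for Gh_A03G0638 (89B1), 0.0262 for Gh_D04G1215 (85A5) and 0.0338 for the 74F2 locus that joins Gh_D02G0079 to Gh_D02G0081. No explanation of these differences was tested.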

How the results depend on the processing

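Between tissues, 11, 7 and 13 members were called for leaf minus buds, ovule minus buds and ovule minus leaf. A pseudocount of 0.1 gave 29, 30 and 26, and A alone gave 5 for leaf minus buds and 3 for ovule minus buds. At an unadjusted p under 0.05 the counts were 8 for hybrid and parent in leaf, 4 for the same in buds, 4, 2 and 10 for the mid-parent in leaf, buds and ovule, and 7 for the genotype F test in leaf. With a pseudocount of 0.1 they were 2 for the mid-parent in leaf, 2 for the mid-parent in buds and 10 for hybrid and parent in ovule. Fits on 2 genotypes alone gave 2 for hybrid and parent in ovule and 2 for paternal and maternal parent in buds. For the mid-parent in buds no filter gave 0 and a minimum of 1 FPKM in all 3 libraries of a group gave 0. For the mid-parent in ovule that minimum gave 3, leaving out L ovule replicates 2 and 3 gave 3 and a term for base quality gave 2. The departure of Gh_D13G1652 from the L mid-parent in ovule turned to -0.0315 without those 2 libraries, in which its level was highest. Other causes were not tested.

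Leaving out 1 library at a time gave 0 to 1 members for the mid-parent in leaf (1 without A replicate 2 or L replicate 1), 1 to 2 for hybrid and parent in buds (2 without M replicate 2), 0 to 1 for the mid-parent in buds (1 without M replicate 2 and 0 otherwise), 4 to 10 for hybrid and parent in ovule (10 without L replicate 1), 2 to 9 for the mid-parent in ovule (2 without L replicate 2, 2 without L replicate 3 and 9 without L replicate 1) and 5 to 10 for the F test in ovule (10 without L replicate 1).

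The replicate numbers are shared across groups. The deviations of same-numbered libraries had mean correlations of 0.00529 in leaf, 0.132 in buds and 0.00479 in ovule, with 1, 33 and 0 of 63 pairs over 0.1. In buds 13 of 21 libraries correlated best with their own number, a hint from the data that the numbers share something there. Since in no tissue did every pair exceed 0.1 and the labels give the numbers no meaning, they were not taken as pairs. With the number as a replicate block the tissue counts were 11, 7 and 13, the bud counts were 1 for hybrid and parent, 4 for paternal and maternal parent, 1 for the mid-parent and 4 for the F test, as without it, hybrid and parent in ovule gave 7, and of 72 named changes the block lost 1, L minus D of the 74F2 locus on D02 in leaf (adjusted p = 0.0635 by limma). The study gives reads per library as a range in its text, but the depth of each library is not known from FPKM. No limit of detection is therefore given for a value of 0, and a pseudocount of 1 understates changes below about 1 FPKM.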
